A study of Mus musculus with 4 samples.

Results

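Type 2-like CD4 T cells without Foxp3 were 59 of the 1050 cells kept from the mouse colon, or 5.62% (exact binomial 95% interval 4.30 to 7.19). They were chosen by their counts: a cell belonged to them when it had no count of Foxp3, the transcription factor of regulatory T cells (Tregs), none of Il10, the gene of a suppressive cytokine, and none of Ikzf2, which encodes the Treg-associated factor Helios, and had at least 1 count of Areg, Il4, Il5, Il13 or Il1rl1. These 8 genes form the gate and are described only, since the gate fixes their values. The comparison cells were the other 402 kept cells with Foxp3, Il10 and Ikzf2 at 0, so that the type 2-like cells were 12.8% (9.89 to 16.2) of the 461 cells without these 3 genes. Intervals throughout cover counting error only.

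The lamina propria is the connective tissue under the gut epithelium, and CD45+ TCRb+ CD4+ T cells from that of the colon were profiled by inDrops, which barcodes the RNA of single cells in droplets. The labels give 4 samples of 1 group (Btheta_colon) and 1 library name, from B6 males at 6 weeks of age. The counts stand in 1 table of 1985 barcodes whose names carry no sample, so the table was handled as 1 sample, no result has a replicate check and no p-value is given. The labels do not spell out the group's name and give no treatment, and no genotype beyond the strain, and how many mice gave the cells, or whether they were pooled, is not given in the sources used here.

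Type 2 helper T cells make the cytokines interleukin 4, 5 and 13, which act on B cells, eosinophils, epithelium and smooth muscle in the defence against worms and in allergy. Their identity depends on the transcription factor Gata3, which also maintains group 2 innate lymphoid cells (ILC2) and a class of tissue Tregs. Such cells can carry the interleukin 33 receptor ST2, encoded by Il1rl1, and can make amphiregulin, encoded by Areg, a ligand of the epidermal growth factor receptor with a part in tissue repair.

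Il4, Il5 and Il13 lie close together on mouse chromosome 11 and Il1rl1 lies on chromosome 1. The windows of 250 bases before the annotated start of these genes are shown because they are the regulatory sequence closest to 4 of the 5 genes that admit a cell. They are from RefSeq (build GRCm38.p6), 5′ to 3′ on the gene's strand, with matches to a GATA factor motif, on either strand, in capitals. The motif searched was AGATAA, or the same with T as its first letter (TGATAA), with G as its last (AGATAG), or with both changes (TGATAG).
Il4 (chr11:53618666-53618915, minus strand): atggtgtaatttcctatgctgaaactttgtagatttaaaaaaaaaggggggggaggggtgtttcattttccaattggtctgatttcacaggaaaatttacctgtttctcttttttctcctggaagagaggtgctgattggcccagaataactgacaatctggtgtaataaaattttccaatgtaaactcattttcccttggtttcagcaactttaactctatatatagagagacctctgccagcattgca
Il5 (chr11:53720544-53720793, plus strand): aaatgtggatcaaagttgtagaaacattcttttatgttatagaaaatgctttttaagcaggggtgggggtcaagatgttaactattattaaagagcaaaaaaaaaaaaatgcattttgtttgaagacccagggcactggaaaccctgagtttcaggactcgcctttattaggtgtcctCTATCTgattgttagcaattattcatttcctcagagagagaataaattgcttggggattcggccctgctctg
Il13 (chr11:53634703-53634952, minus strand): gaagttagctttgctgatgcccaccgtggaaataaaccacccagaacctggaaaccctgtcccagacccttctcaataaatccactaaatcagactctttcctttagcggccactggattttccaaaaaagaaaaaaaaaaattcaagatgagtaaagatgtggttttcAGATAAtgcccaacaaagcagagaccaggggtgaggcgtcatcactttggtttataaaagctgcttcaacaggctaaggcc
Il1rl1 (chr1:40429320-40429569, plus strand): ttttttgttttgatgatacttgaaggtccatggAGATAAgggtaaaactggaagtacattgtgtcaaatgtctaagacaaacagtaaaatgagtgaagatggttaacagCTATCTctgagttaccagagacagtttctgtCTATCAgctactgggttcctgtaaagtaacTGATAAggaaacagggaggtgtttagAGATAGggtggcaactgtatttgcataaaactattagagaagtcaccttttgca
Il5 held 1 match, which began 72 bases before the start, Il13 held 1 at 81 bases, and Il1rl1 held 5, at 217, 141, 110, 80 and 54 bases. The Il4 window shown held none, while a second annotated Il4 start (chr11:53617339-53617588) had TGATAG at 80 bases. A second annotated Il1rl1 start (chr1:40439379-40439628) had 1 match, at 103 bases, and the window of Areg, on another chromosome (chr5:91139349-91139598), held 0. No matches overlapped. Of all 32851 promoter windows of this length, 26.5% held at least 1 of the 4 motifs, so a match in a window is common and is given as a description of the letters only.

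The gate genes divided the cells into 3 kinds, described here with no test. Areg was counted in 23 of the 59 cells, Il1rl1 in 20, Il4 in 16, Il13 in 8 and Il5 in 3. Of the 59 cells, 50 had 1 of the 5 genes and 9 had several, among them 1 cell with Areg, Il4, Il5 and Il13 together. At the edge of the gate, 37 cells had exactly 1 gate count, 10 had 2 and 12 had 3 or more, up to 12. The cells outside it had none.

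At least 1 of the cytokine genes Il4, Il5 and Il13 was counted in 24 type 2-like cells, here called cytokine gene carriers. Another 19 had Areg without a cytokine gene and 16 had Il1rl1 alone. Il1rl1 was in 0 of the 24 cytokine gene carriers, which allows a share of up to 12.5% of cells with a count, and Areg was in 4 of them. Of all 110 kept cells with Areg, 49 had Foxp3, 38 had Il10 or Ikzf2 without Foxp3, and 23 (20.9%) were type 2-like. Il1rl1 was divided in a like way, with 20 of 76 cells (26.3%) type 2-like. Il4 and Il13 were not: 16 of the 18 cells with Il4 (88.9%, 65.3 to 98.6) and 8 of the 9 with Il13 were type 2-like. Il5 was counted in only 6 cells, of which 3 were type 2-like and the other 3 had Il10 or Ikzf2. At least 1 cytokine gene was counted in 5.21% (3.36 to 7.65) of the 461 cells without Foxp3, Il10 and Ikzf2, in 0.904% (0.187 to 2.62) of the 332 cells with Foxp3, and in 1.17% (0.241 to 3.37) of the 257 cells with Il10 or Ikzf2 but no Foxp3.

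**Figure D1:**
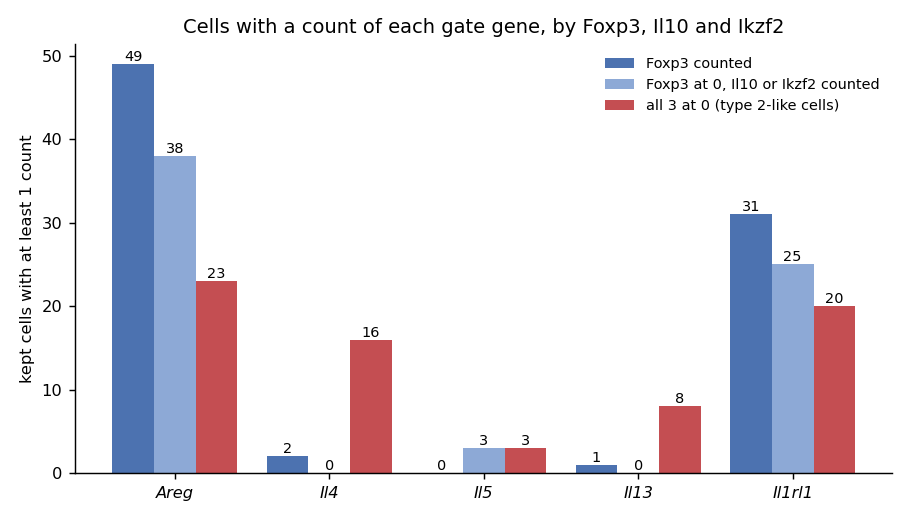
Kept cells with at least 1 count (vertical axis) of each gate gene (horizontal axis), split by whether Foxp3, or Il10 or Ikzf2 without Foxp3, was also counted. Areg and Il1rl1 were mostly in cells with Foxp3, Il10 or Ikzf2, while 16 of 18 Il4 cells and 8 of 9 Il13 cells had none of the 3.

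As a guide to background from free RNA, 46 kept cells carried at least 2 of the naive T cell genes Ccr7, Lef1, Igfbp4 and Tcf7, a type that should lack the gate genes. Of these, 2 (4.35%, 0.531 to 14.8) had a gate gene, at a median of 1342 counts per cell. In both cells it was the cytokine gene Il4, and 1 of the 2 cells was itself type 2-like. The share with a cytokine gene was therefore 4.35% in the naive-marked cells against 5.21% in the 461 cells without Foxp3, Il10 and Ikzf2, which hold 43 of the 46, and their intervals overlap. The guide rests on 2 positive cells and most of its cells are among the 461, so the overlap does not show that the shares are alike. The part of free RNA in the cytokine gene counts was not tested. The share of gate-positive cells was larger in deeper cells, with intervals that overlapped. Type 2-like cells were 8.78% (4.76 to 14.6) of the 148 cells without the 3 excluding genes at 500 to 1000 counts. They were 13.3% (8.73 to 19.2) of 180 at 1000 to 1500, and 16.5% (10.7 to 24.0) of 133 at 1500 or more. The median depth was 1339 counts per cell in the type 2-like cells and 1192 in the comparison cells, and the sums were 98121 and 558816 counts.

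The label was checked against markers. All 59 type 2-like cells and 384 of the 402 comparison cells had a count of Cd3e, Cd3d, Cd3g, Trac, Trbc1 or Trbc2, which encode the T cell receptor and its CD3 chains. One type 2-like barcode went against the label: its 13023 counts, the most of any kept barcode and 13.3% of all counts of the type 2-like cells, held 226 of Krt8, 247 of Guca2a and 69 of Krt20, all epithelial genes, with 1 count of Trac and none of the CD3 genes or Cd4. It entered the gate through 2 counts of Areg. Another type 2-like barcode had 3 counts of such markers but also T cell genes. Results that turn on these barcodes are therefore also given without barcodes with at least 3 counts of epithelial, stromal, mast cell, basophil, B or plasma cell markers, which left 57 type 2-like and 386 comparison cells. Scrublet called 9 of the 1050 kept cells doublets: 0 of the type 2-like cells and 1 of the comparison cells.

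Other cells that make type 2 cytokines were looked for in the same way. Of 15 mast cell and basophil markers 13 were at 0 in the type 2-like cells, among them Mcpt1, Mcpt2, Mcpt8, Cpa3 and Fcer1a, and the other two summed to 2 counts, or 20.4 CPM (counts per 1000000 counts) against 19.7 in the comparison cells. Of the 14 ILC2 genes, Nmur1, Arg1, Hey1 and Tox2 were at 0. The ILC2 list summed to 3282 CPM against 1718, mostly in Gata3 and Klrg1, which T cells also express. A count of any ILC2 gene was found in 88.1% of type 2-like and 62.4% of comparison cells. Of the 7 ILC2 genes with at least 10 counts, 4 were at least 1.5-fold higher and 3 lower, with a median log2 ratio of 1.29. Among all genes counted that often, 22.8% were higher and 28.9% lower by this fold. Cd8a was at 0 in both groups, and the markers of CD8, gamma delta and natural killer T cells summed to 71.3 and 104 CPM.

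Levels were compared as CPM over the summed counts of each side, with a log2 ratio of type 2-like over comparison cells and its exact conditional 95% interval. Of 2241 genes with at least 50 counts over both sides, 307 (13.7%) were at least 1.5-fold higher and 499 (22.3%) at least 1.5-fold lower in the type 2-like cells, and the median over these genes was a log2 ratio of -0.09. Without barcodes of other types 280 of 2025 genes were higher and 416 lower. Ratios are also given with each cell's count of a gene capped at 1, which keeps a few cells with many counts from setting a ratio. A higher level can mean more cells with the gene or more RNA per cell, so both are given.

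Gata3 was counted in more type 2-like cells than any other of the 12 genes named for the highest ratios. It had a median of 2 counts per type 2-like cell, from 0 to 21, and a median of 0, from 0 to 27, in the comparison cells. Its level was 2324 against 945 CPM, a log2 ratio of 1.30 (1.07 to 1.53), or 1.45 without barcodes of other cell types and 0.66 with counts capped at 1. It was counted in 43 of 59 type 2-like cells (72.9%) and 165 of 402 comparison cells (41.0%). The 2 groups overlapped cell by cell, as they did for every gene named here. In cells thinned to 500 counts the shares were 50.8% and 27.4%, and in the 3 depth ranges above they were 76.9% against 37.8%, 66.7% against 43.6%, and 77.3% against 41.4%. In the naive-marked cells Gata3 was counted in 9 of 46 (19.6%).

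Klrg1 had the highest ratio of those 12. It encodes an inhibitory receptor for cadherins found on effector T cells, ILC2 and tissue Tregs. It was counted in 18 of 59 type 2-like cells (30.5%) and 33 of 402 comparison cells (8.21%), with at most 5 and 4 counts per cell. The level was 448 against 107 CPM, a log2 ratio of 2.06 (1.47 to 2.65), or 2.18 without barcodes of other types. The naive-marked cells had it in 1 of 46.

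Hlf, which encodes a PAR domain leucine zipper transcription factor best known from blood stem cells, was counted in 17 of 59 type 2-like cells (28.8%) and 23 of 402 comparison cells (5.72%). Its level was 204 against 76.9 CPM, a log2 ratio of 1.41 (0.56 to 2.20), 1.67 without barcodes of other types, 2.16 with counts capped at 1 and 0.14 when only cells with at least 2 gate counts were called type 2-like. A single comparison cell held 14.0% of that side's counts. Fgl2, the gene of a fibrinogen-like protein that Tregs secrete, was at 550 against 213 CPM (log2 ratio 1.37, 0.88 to 1.85), and was counted in 24 and 68 cells. Ctla2a, which encodes a cathepsin inhibitor, was at 775 against 310 CPM (1.32, 0.91 to 1.72), in 26 and 80 cells.

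The other genes of the highest 12 were counted in 11 to 17 type 2-like cells each. Pxdc1 had a log2 ratio of 1.98, Ppp1r9b, the protein phosphatase 1 scaffold spinophilin, 1.79, and Fam46a, a member of a family of non-canonical poly(A) polymerases, 1.62. Slc25a39, a mitochondrial carrier, had 1.47 (0.60 to 2.30), but 1 cell held 36.8% of its counts in the type 2-like cells. Its ratio was 1.28 (0.13 to 2.33) without barcodes of other types and 0.94 under 10% mitochondrial counts. Plekhj1 had 1.34, the dynactin subunit Dctn6 had 1.26, and the nuclear protein gene Csrnp1 had 1.24. Of the genes meeting the rule for naming, 29 were higher and 23 lower.

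**Figure D2:**
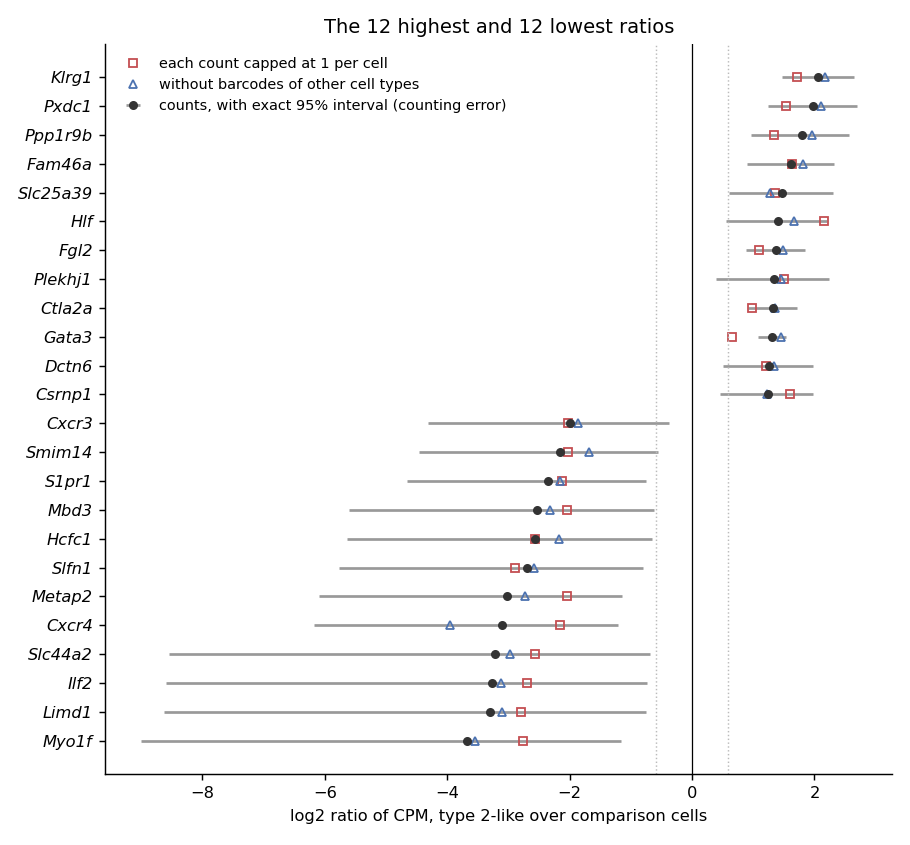
Log2 ratio of CPM (horizontal axis) of the 12 genes with the highest and the 12 with the lowest ratios that met the naming rule, in type 2-like over comparison cells. Genes at 0 on a side were not ranked. Black points are counts with exact 95% intervals, red squares are counts capped at 1 per cell, blue triangles leave out barcodes of other cell types, and dotted lines mark 1.5-fold. With plain counts the ratios ran from 2.06 for Klrg1 to -3.68 for Myo1f. All 3 values of each gene lay on the same side of 0, which the selection favoured. The naming rule required plain and capped intervals that excluded 0, and the third value reuses most of the same cells.

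Among genes with a count on both sides, those of lowest ratio were seen in few type 2-like cells. Genes at 0 in the type 2-like cells, such as Igfbp4 and Ccr7 below, had no ratio and were not ranked here. Cxcr4, the receptor for the chemokine Cxcl12, was counted in 2 type 2-like and 54 comparison cells, a log2 ratio of -3.10 (-6.17 to -1.21). S1pr1, the receptor that lets T cells leave tissues along sphingosine 1-phosphate, was in 2 and 53 cells (-2.35, -4.65 to -0.75), and Cxcr3, the chemokine receptor of type 1 cells, in 2 and 49 (-1.99, -4.31 to -0.38). Myo1f, an unconventional myosin of leukocytes, was in 1 and 41 cells (-3.68, -9.00 to -1.16). Limd1, Ilf2, Slc44a2, Metap2, Slfn1, Hcfc1, Mbd3 and Smim14 were each in at most 2 type 2-like cells, with log2 ratios of -3.30 to -2.15. With so few counts the intervals are wide.

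Gene lists were described by their members with at least 10 counts over both sides. Of all 6819 such genes 22.8% were at least 1.5-fold higher and 28.9% at least 1.5-fold lower, and their median log2 ratio was -0.08.

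Among transcription factors tied to type 2 cells, 18 of 20 were measured, with 8 at least 1.5-fold higher, 4 lower and a median log2 ratio of 0.33. After Gata3, the abundant members differed little. Maf, which acts on the Il4 promoter, was at 938 against 777 CPM (0.27, -0.07 to 0.60), Junb at 2079 against 1578 (0.40, 0.17 to 0.62) and Id2 at 897 against 961 (-0.10, -0.44 to 0.23). Bhlhe40 was at 245 against 145 CPM (0.75, 0.03 to 1.43) and Rbpj, the partner of Notch in transcription, at 265 against 161 CPM (0.72, 0.03 to 1.36). Stat6, which carries the interleukin 4 signal, was counted in 9 of 59 and 24 of 402 cells (0.92, -0.06 to 1.83). Irf4 had a log2 ratio of 1.75 (0.64 to 2.80), but 1 cell held 53.8% of its counts in the type 2-like cells, and Nfil3 had 2.05 from 8 counts. Rora was at a lower level, 204 against 358 CPM (-0.81, -1.55 to -0.15), but was counted in 23.7% and 25.9% of cells. Its ratio with capped counts was -0.30 (-1.22 to 0.51).

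Of 21 receptor and surface genes of type 2 cells, 15 were measured, with 6 at least 1.5-fold higher, 2 lower and a median of 0.26. Beside Klrg1, Tnfrsf4, the costimulatory receptor OX40, was at 296 against 141 CPM (1.06, 0.40 to 1.69). Cd200r1, an inhibitory receptor, was in 6 of 59 and 13 of 402 cells (2.04, 0.89 to 3.15), and 1 cell held 53.8% of its counts in the type 2-like cells. Il17rb, a chain of the interleukin 25 receptor, was in 4 and 6 cells (2.51, 0.77 to 4.25), with 57.1% of its counts on the type 2-like side in 1 cell. Il9r, the interleukin 9 receptor, was in 8 and 18 cells (1.29, -0.02 to 2.47). Icos was at 846 against 727 CPM (0.22, -0.14 to 0.56) and Il2ra was counted in 6 and 33 cells (0.26, -0.77 to 1.18). The chemokine receptor gene Ccr4 was at 143 against 170 CPM, the interleukin 4 receptor gene Il4ra at 61.1 against 85.9 and Crlf2, a chain of the TSLP receptor, at 71.3 against 111, each with an interval that included 0. Ptgdr2, the prostaglandin D2 receptor often used to mark type 2 cells, had no count on either side. In thinned cells, with 11 genes measured, the list's median was -0.50.

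Among 14 measured genes of other T cell cytokines 4 were at least 1.5-fold higher and 5 lower, with a median of 0.07, or -0.38 without barcodes of other types. Lif, a cytokine of the interleukin 6 family, was at 112 against 19.7 CPM (2.51, 1.16 to 3.86), in 5 of 59 and 6 of 402 cells. Of its 11 counts in the type 2-like cells, 6 were in 1 cell. Penk, the enkephalin precursor gene, was in 5 and 9 cells (1.59, 0.24 to 2.84). Tnfsf11, Il2 and Ltb had log2 ratios of 0.27, 0.30 and -0.54 with intervals that included 0, and the chemokine gene Ccl5 was in 1 and 18 cells (-2.15, -4.46 to -0.55). Ifng, the signature cytokine gene of type 1 cells, had 0 counts in the type 2-like cells and 47 in the comparison cells, which is at least 2.75-fold lower against a floor of 3 counts over the group.

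Of the other genes of tissue repair and epidermal growth factor ligands, 10 were measured, with 5 at least 1.5-fold higher, 3 lower and a median of 0.47, which was -0.28 without barcodes of other cell types and -0.34 with capped counts. Of the 112 counts of Lgals3, which encodes galectin 3, 110 were in the epithelial barcode, and its log2 ratio of 3.89 became -1.54 without barcodes of other types. Anxa1 was in 5 of 59 and 11 of 402 cells (1.51, -0.04 to 2.91). Furin, a protease that activates growth factors, was at 51.0 against 152 CPM (-1.58, -3.24 to -0.30), and Odc1, the first enzyme of polyamine synthesis, at 183 against 340 CPM (-0.89, -1.68 to -0.19).

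Genes of Tregs were measured although the gate removed Foxp3, Il10 and Ikzf2. Of 16 measured core signature genes 6 were at least 1.5-fold higher and 4 lower, with a median of 0.41, or 0.44 without barcodes of other types. The median was 0.01 in thinned cells and -0.72 with the gate set to Il4, Il5 or Il13 alone. Tnfrsf18, the costimulatory receptor GITR, was at 642 against 277 CPM (1.21, 0.76 to 1.64), in 26 of 59 (44.1%) and 83 of 402 (20.6%) cells. Ctla4, an inhibitory receptor, was at 632 against 392 CPM (0.69, 0.26 to 1.10), in 21 and 99 cells, and Tnfrsf9, the receptor 4-1BB, was in 10 and 24 cells (0.92, 0.01 to 1.77). Gzmb, abundant in a class of colon Tregs, was in 1 and 18 cells (-1.64, -3.55 to -0.22). These genes were unevenly spread among the type 2-like cells, as given below.

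Most genes of naive and circulating T cells were lower. Of 18 measured genes none was at least 1.5-fold higher and 13 were lower. The median was -1.21, or -1.27 without barcodes of other types, -0.73 with capped counts and -0.55 in thinned cells. Over the 15 other settings it ran from -1.46 to -0.13. A count of any gene of the list was nevertheless found in 72.9% of type 2-like and 72.1% of comparison cells. Igfbp4 and Ccr7 were at 0 in the type 2-like cells against 95 and 64 counts in the comparison cells, at least 5.56-fold and 3.75-fold lower. A count of 0 in 59 cells allows a share of up to 6.06% of cells with a count (exact binomial 95% limit). Tcf7, a transcription factor of naive and memory cells, was in 7 of 59 and 88 of 402 cells (-1.61, -2.85 to -0.59). Satb1 was in 4 and 52 (-1.96, -3.61 to -0.70) and Lef1 in 4 and 45 cells (-1.81, -3.72 to -0.40). Klf2 was at 285 against 499 CPM (-0.81, -1.42 to -0.24). Foxp1 and Cd27 had log2 ratios of 0.39 and 0.14, and both intervals included 0.

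Most measured genes of type 1 and Th17 cells were lower too. Of 12 measured type 1 and cytotoxic genes 0 were at least 1.5-fold higher and 8 lower, with a median of -1.46, or -1.21 without barcodes of other types, -0.63 with capped counts and -0.10 with the gate set to Il4, Il5 or Il13 alone. A count of any type 1 gene was nevertheless found in 61.0% of type 2-like and 52.0% of comparison cells. Tbx21, the master factor of type 1 cells, had 0 counts against 47 in 28 comparison cells, at least 2.75-fold lower. Nkg7, a granule gene, was in 4 and 61 cells (-1.85, -3.32 to -0.68). Of 7 measured Th17 genes 6 were at least 1.5-fold lower and none higher (median -1.23), led by Tmem176b, in 2 and 33 cells (-2.88, -5.95 to -0.98). The genes of follicular helper (Tfh) cells summed to 214 against 209 CPM, in 20.3% and 18.4% of cells, and their median of -0.66 over 3 genes was 0.16 with capped counts.

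The genes of T cell receptor signalling and of immediate early responses had a median log2 ratio of 0.60, with 11 of 21 at least 1.5-fold higher and 2 lower. Dusp1, a phosphatase of MAP kinases, had a median of 3 counts per type 2-like cell and 1 per comparison cell and was at 3006 against 1745 CPM (0.79, 0.59 to 0.97). Nfkbia, the inhibitor of NF-kB, was at 2201 against 1351 CPM (0.70, 0.48 to 0.92). Cd69, a marker of activation and of tissue residency, was in 29 of 59 (49.2%) and 90 of 402 (22.4%) cells (log2 ratio 1.0, 0.58 to 1.40). The median of the list was 0.29 with capped counts and 0.75 without barcodes of other types. Genes that tissue dissociation induces had a median of 0.33 over 16 genes, and 0.00 with capped counts. The part of dissociation in these ratios was not tested.

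Glycolysis genes had a median of 0.62 over 14 genes, which was 0.25 without barcodes of other types and turned to -0.20 with the gate without Areg and -0.15 with the gate set to Il4, Il5 or Il13 alone. Hif1a, the oxygen-sensing factor, was at 275 against 136 CPM (1.02, 0.33 to 1.67), a ratio that was -0.06 with the cytokine genes alone as the gate. The hexokinase gene Hk2 was in 9 of 59 and 23 of 402 cells (1.82, 0.89 to 2.72). Cell cycle genes had a median of -0.99 over 19 genes, with 11 at least 1.5-fold lower and 1 higher. Tubb5 was at 316 against 685 CPM (-1.12, -1.70 to -0.59), and Birc5 had 0 counts against 44. Genes of residency and homing were near the background, with 3 of 18 higher, 6 lower and a median of -0.13. Among them Cxcr6, a receptor of resident T cells, was at 540 against 408 CPM (0.40, -0.05 to 0.84) and Itgal, a chain of the integrin LFA-1, at 265 against 489 (-0.88, -1.52 to -0.30).

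All 15 T cell identity genes were below a ratio of 1 with plain counts, with a median log2 ratio of -0.35. The median was -0.14 with capped counts, where Thy1, Cd4, Cd3e and Zap70 were at 0.01 to 0.14. Without barcodes of other types it was -0.31, with Cd3e, Cd3d and Zap70 at 0.03, 0.05 and 0.05 and the others below 0. Trbc2 was at 1223 against 1849 CPM (-0.60, -0.88 to -0.32) with a median of 1 and 2 counts per cell, but was counted in 71.2% and 70.1% of the cells. Lck, the kinase next to the receptor, was at 469 against 975 CPM (-1.06, -1.52 to -0.62), Cd247 at 194 against 401 (-1.05, -1.81 to -0.37) and Cd5 at 40.8 against 134 (-1.72, -3.63 to -0.30). Cd4 was in 39.0% of type 2-like and 32.8% of comparison cells, and Cd3e in 27.1% and 21.9%.

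**Figure D3:**
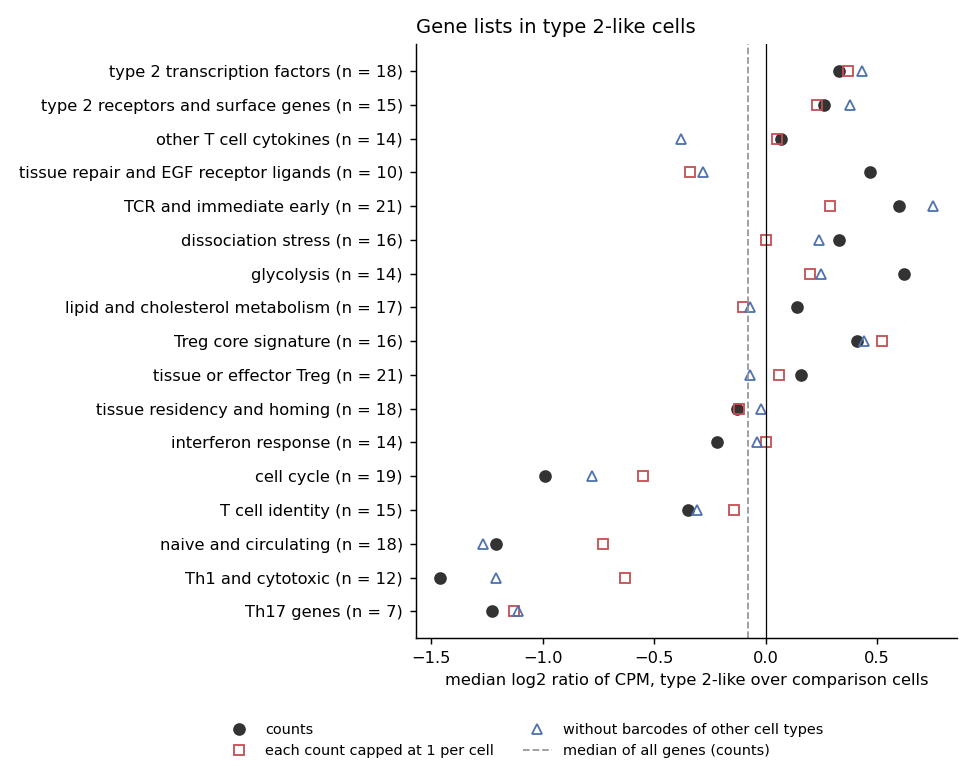
Median log2 ratio of CPM in type 2-like over comparison cells (horizontal axis) for 17 gene lists, with the number of genes measured. Black points are counts, red squares counts capped at 1 per cell, and blue triangles leave out barcodes of other cell types. The dashed line is the median of all genes with a ratio, -0.08. The naive, type 1 and Th17 lists lay lowest at -1.21, -1.46 and -1.23, and the tissue repair list changed sides between the 3 values.

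The 3 kinds of type 2-like cell had similar shares of cells with Gata3, which was counted in 17 of 24 cytokine gene carriers (70.8%, 48.9 to 87.4), 14 of 19 cells with Areg and no cytokine gene (73.7%, 48.8 to 90.9) and 12 of 16 cells with Il1rl1 alone (75%, 47.6 to 92.7). Their median depths were 1398, 1460 and 1302 counts. The Areg kind includes the epithelial barcode.

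The cytokine gene carriers were then set against the other 35 type 2-like cells, a split chosen after the values were seen and given as a description. Of 417 genes counted in at least 15 type 2-like cells, 11 (2.64%) were counted in a share of carriers at least 25 percentage points higher and 11 (2.64%) in a share at least 25 points lower. Hlf had the largest difference: it was in 13 of 24 carriers (54.2%, 32.8 to 74.4) and 4 of the 35 others (11.4%, 3.20 to 26.7). In thinned cells the shares were 29.2% and 5.71%. Elsewhere in the table Hlf was in 5.72% of comparison cells, 5.26% of the 76 cells with Foxp3 and a gate gene, and 5.08% of the 256 cells with Foxp3 and none.

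Rbpj was in 11 of 24 carriers (45.8%) and 6 of 35 others (17.1%), against 15.9% of comparison cells. Fgl2 was in 58.3% and 28.6%, but also in 53.9% of the cells with Foxp3 and a gate gene. Rnf166, Gm2a, Hcst, Prkacb, Tpm3, Gnas and Stk17b completed the named genes on this side, with differences of 26.2 to 31.5 points. Cxcr6 was in 12 of 24 carriers and 12 of 35 others, and Lif in 4 and 1. All but 1 of the 7 type 2-like cells with Tcf7 were carriers (6 of 24).

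Other genes were counted in a smaller share of the carriers. Klrg1 was in 2 of 24 carriers (8.33%, 1.03 to 27.0) and 16 of the 35 others (45.7%, 28.8 to 63.4), against 8.21% of comparison cells and 69.7% of the cells with Foxp3 and a gate gene. Ctla4 was in 3 carriers (12.5%) and 18 others (51.4%), against 24.6% and 88.2% in those same groups. Tnfrsf9 was in 0 and 10, Tnfrsf4 in 2 and 11, and Tnfrsf18 in 7 and 19. Serinc3, a membrane protein gene, was in 33.3% and 74.3%, and Fam46a in 12.5% and 40.0%.

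The number of Treg core genes counted per cell also differed between kinds of similar depth. The median was 1 gene in the cytokine gene carriers, 4 in the cells with Areg and no cytokine gene and 2.5 in the cells with Il1rl1 alone. It was 2 in the comparison cells and 6 in the cells with Foxp3 and a gate gene, whose median depth was higher at 1764 counts. The summed level of the list was 1775 CPM in carriers, 4664 and 5821 CPM in the other kinds, 2736 CPM in comparison cells and 9563 CPM with Foxp3 and a gate gene. With the gate set to Il4, Il5 or Il13 alone, the ratios over comparison cells turned for Ctla4 (-1.10), Tnfrsf4 (-0.85) and Tnfrsf18 (-0.24), while Gata3 was at 1.51, Hlf at 2.44 and Klrg1 at 0.28. Of the 44 Klrg1 counts in type 2-like cells 39 were in cells without a cytokine gene, and of the 62 Ctla4 counts 55 were.

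**Figure D4:**
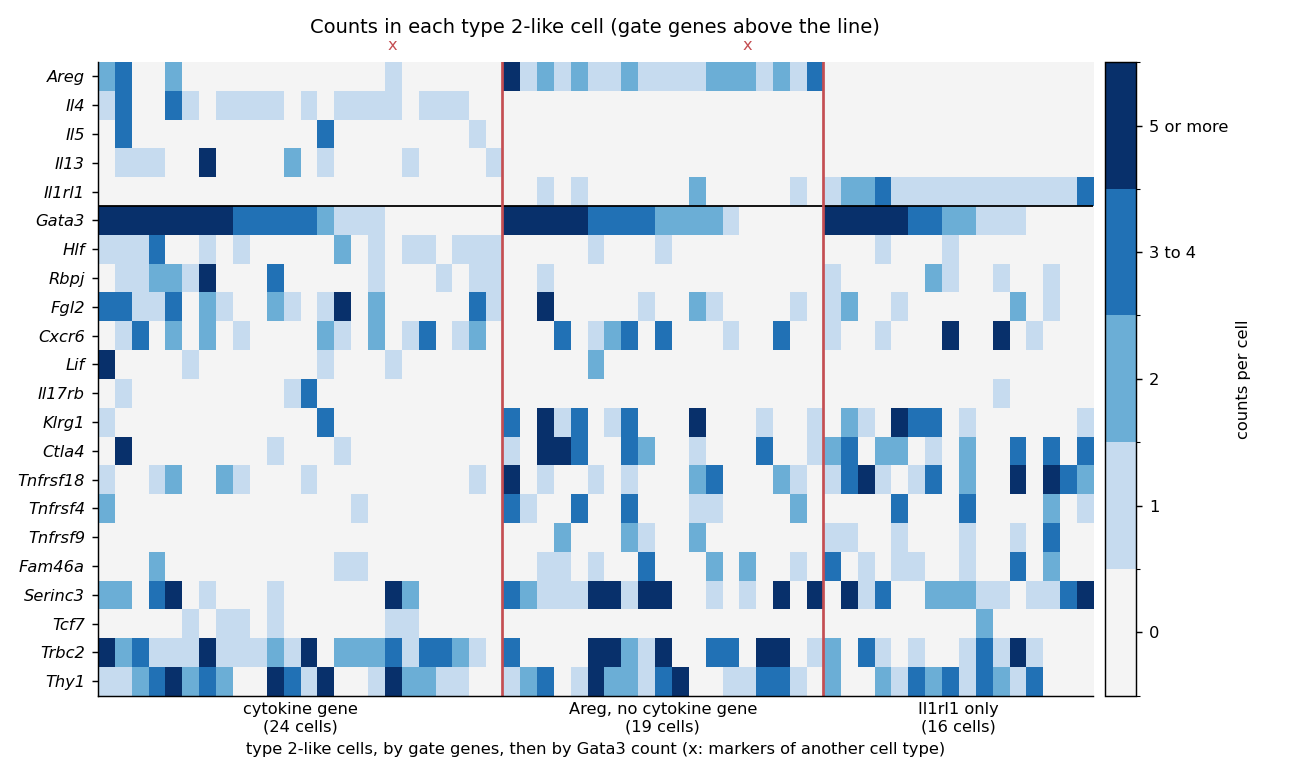
Counts per cell (colour) of the 5 gate genes (above the line) and other genes (rows) in each of the 59 type 2-like cells (columns), in the 3 kinds set by the gate genes. Gata3 was counted in most cells of every kind, Hlf mostly in the 24 cytokine gene carriers, and Klrg1 and Ctla4 mostly in the cells with Areg or Il1rl1.

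**Figure D5:**
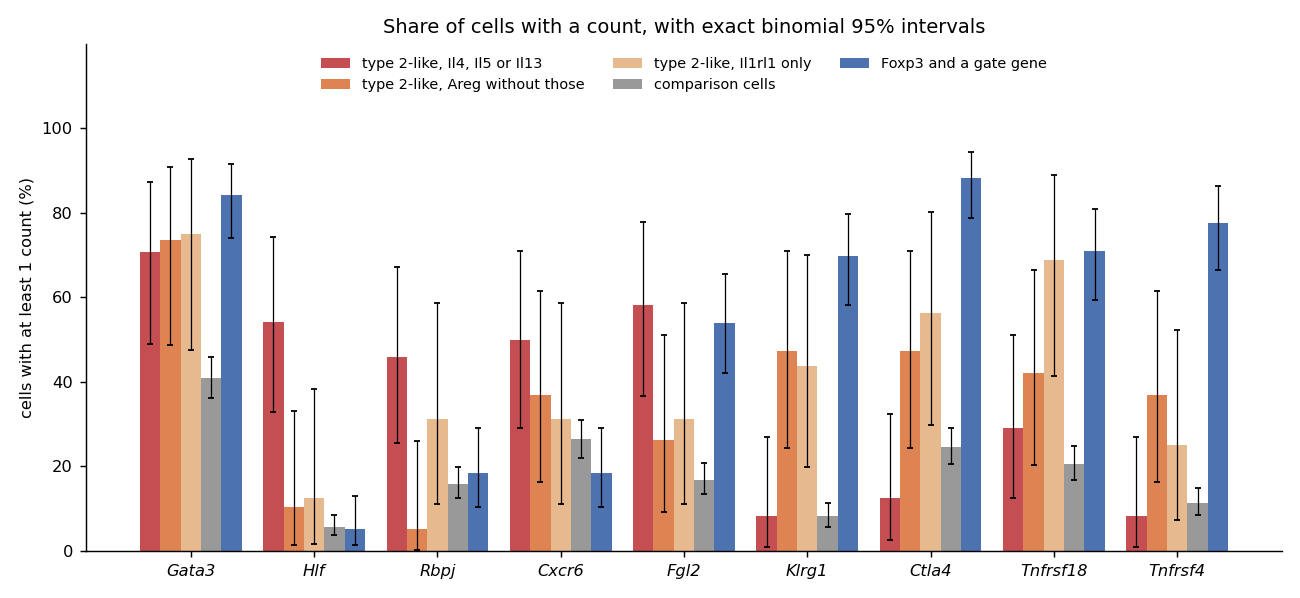
Share of cells with at least 1 count (vertical axis, percent, bars from 0 with exact binomial 95% intervals) of 9 genes (horizontal axis) in the 3 kinds of type 2-like cell, the 402 comparison cells and the 76 cells with Foxp3 and a gate gene. Hlf stood at 54.2% in the cytokine gene carriers and at most 12.5% in the other groups, while Klrg1 stood at 8.33% in the carriers and 69.7% in the cells with Foxp3.

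Against the 76 cells with Foxp3 and a gate gene, shares of type 2-like cells were lower for Tnfrsf4, Ctla4 and Tnfrsf18 and higher for Cxcr6, with no test of the difference. Tnfrsf4 was in 22.0% of type 2-like cells and 77.6% of those cells, Ctla4 in 35.6% and 88.2%, and Tnfrsf18 in 44.1% and 71.1%, and after thinning to 500 counts in 11.9% and 31.6%, 18.6% and 59.2%, and 30.5% and 32.9%. Gata3 was in 72.9% and 84.2%, and after thinning in 50.8% and 53.9%. Cxcr6 was in 40.7% and 18.4%, and after thinning in 23.7% and 5.26%.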

How the data were processed

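The authors' deposited table holds counts per barcode and gene. The submitters' processing notes list mm10, TopHat2 and SAMtools, with no versions or roles. How counts were made, whether molecular identifiers were collapsed, which annotation was used and how barcodes were filtered is not given in the sources used here. Members and gene lists were chosen with earlier results of these data known.

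Barcodes with at least 500 counts, 200 genes and under 20% mitochondrial counts were kept. Counts were summed per side and divided by the side's total to give CPM, with exact conditional intervals (scipy 1.17.1), checked on simulated data. The simulation drew independent counts at pooled rates, so the check did not cover genes whose counts gather in single cells. No test was run, since barcodes carry no sample, and doublets were only marked (Scrublet, scanpy 1.11.5). The rule for naming used genes with a count on both sides, at least 50 counts in all and at least 20 cells. Among those whose intervals excluded 0 both with plain and with capped counts, it took the 12 largest ratios in each direction. It left out mitochondrial and ribosomal genes, predicted transcripts, and genes of immunoglobulins and of the T cell receptor. It added type 2 list genes of at least 50 counts and, from each other list, up to 4 genes of at least 20 counts by ratio over interval width. Other genes named, the split by cytokine genes, the genes that mark naive cells and the bounds for genes at 0 were chosen after their values were seen. A side of 0 counts was set to 3 counts. A further gene of the lists is not reported here. Il4, Il5, Il13 and Il1rl1 were matched to RefSeq by symbol. Every cell counts once and each list is described by counts and a median.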

Additional observations from a re-analysis of the deposited data

Results flagged for a closer look

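Gate genes also appeared outside the kept cells. Of the 879 barcodes that were not kept and had Foxp3, Il10 and Ikzf2 at 0, 13 (1.48%, exact binomial 95% interval 0.790 to 2.52) had a count of Areg, Il4, Il5, Il13 or Il1rl1. That share was above the 0.341% (3 of 879) that a count of 0 was taken to allow. These barcodes had a median of 88.0 counts, and they are in no comparison.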

How the results depend on the processing

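No paired analysis was possible because the barcodes carry no sample, and leaving out a replicate could not be run for the same reason. The counts of genes and log2 ratios were recomputed under 15 other settings, 1 of them (without the type 2-like barcode of most counts) chosen after seeing the data; for 12 of 113 named genes some settings gave no value. Shares were recomputed under those that change the cells. The share of 5.62% became 2.17% with at least 2 gate counts, 4.25% with the gate without Areg, 4.16% without Il1rl1 and 2.36% with Il4, Il5 or Il13 only, as fewer cells met the gate. The 307 higher and 499 lower genes became 87 and 111 in thinned cells, 940 and 1443 with genes of at least 20 counts, and 181 and 291 without cells carrying naive genes, over 669, 5007 and 1444 genes. Klrg1, Gata3 and Hlf kept their direction in all 15, with log2 ratios of 0.28 to 2.69, 0.66 to 1.64 and 0.14 to 2.44. Without the barcode of most counts, the ratios of Lgals3, Tpi1, Cpt1a, Guca2a, Krt8 and Lgals4 and the epithelial median turned to -1.71, -0.32, -0.19, -2.07, -2.81, -1.61 and -2.81. Under 10% mitochondrial counts the same 7 values were -1.57, -0.23, -0.16, -2.03, -1.68, -0.68 and -2.03, and without barcodes of other types Lgals3, Tpi1 and Cpt1a were at -1.54, -0.01 and -0.07. With the gate without Areg, Lgals3, Tpi1, Guca2a, Krt8 and Lgals4 were at -1.28, -0.48, -1.05, -2.38 and -1.17, the glycolysis median at -0.20 and the epithelial one at -2.38. With Il4, Il5 or Il13 only, Tnfrsf4, Tnfrsf18, Ctla4, Hif1a, Tpi1, Guca2a and Krt8 were at -0.85, -0.24, -1.10, -0.06, -0.76, -0.33 and -1.66, Trbc1 at 0.11, and the glycolysis and epithelial medians at -0.15 and -1.89. With at least 2 gate counts Dctn6 was at -0.26 and Isg15 at -0.07. With capped counts Lgals3 and Cpt1a were at -1.21 and -0.10, Hsp90ab1, Hmgb2, Thy1 and Cd74 at 0.01, 0.17, 0.01 and 1.37, and the Tfh and stromal medians at 0.16 and 0.24. Of 1678 recomputed ratios of named genes 102 lay on the other side of 0, 36 of them for genes whose reported interval excluded 0, which are those given here, and 66 for 20 genes whose interval included 0, and the cause was not tested apart from the settings that by their construction leave out cells. At 98121 counts, a gene at 0 in the type 2-like cells was taken to be as high as 30.6 CPM, which is 3 counts.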

Other observations

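Genes of tissue or effector Tregs had a median log2 ratio of 0.16 over 21 genes in the type 2-like cells, with 6 at least 1.5-fold higher and 7 lower, near the shares of all genes. Interferon response genes had a median log2 ratio of -0.22 over 14 genes, with 3 at least 1.5-fold higher and 3 lower. Isg15, an interferon-induced ubiquitin-like protein gene, was in 4 of 59 and 18 of 402 cells (log2 ratio 1.45), and Zbp1, a sensor of nucleic acids, in 3 and 47 (-2.13, -4.04 to -0.73). Genes of lipid and cholesterol metabolism had a median of 0.14 over 17 genes, with 7 higher and 4 lower, and -0.07 without barcodes of other types. Of the Tfh genes 3 were measured, with 2 lower and a median of -0.66. Myeloid genes had a median of -1.31 over 6 genes, and 13 of 15 were at 0 in the type 2-like cells, among them Lyz2, C1qa and H2-Aa. A count of any myeloid gene was nevertheless found in 27.1% of type 2-like and 18.4% of comparison cells. Up to 11 myeloid genes were counted in a single comparison cell, against at most 2 in a type 2-like cell. Stromal genes had a median of -1.90 over 8 genes, and Col1a1, Dcn and Sparc were at 0. Of the B and plasma cell genes Ighm, also counted in sorted T cells, was in 8 of 59 and 100 of 402 cells (-1.36, -2.39 to -0.48), and the other 9 were at 0. Of 10 eosinophil and neutrophil genes 9 were at 0, and the list summed to 81.5 against 131 CPM. Epithelial genes had a median of 4.02 over 13 genes, with 775 of their 780 counts in 1 barcode.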
